A study of Mus musculus with 5 samples.

Results

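Sphingosine-1-phosphate (S1P) is a lipid messenger made inside cells from sphingosine by the sphingosine kinases, carried out of the cell by transporters, and removed by dephosphorylation or by irreversible cleavage. Outside the cell it binds a family of G protein-coupled receptors that act on cell junctions, migration and contractility. In the eye, S1P is known to lower the outflow of aqueous humor through the trabecular meshwork and Schlemm's canal.

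The genes described here were taken from a list of 9 symbols looked up among the 56941 gene identifiers of the deposited table: the receptors S1pr1, S1pr2, S1pr3 and S1pr4, the kinases Sphk1 and Sphk2, the lyase Sgpl1, the phosphatase Sgpp1 and the transporter Spns2. All 9 were found, and all 9 passed the filter of at least 10 counts in at least 1 pool. The list was drawn up knowing that S1pr3 was higher in DBA/2J, and in that sense the members were chosen by the S1pr3 counts of these same pools. The values of S1pr3 between the genotypes are therefore a description and carry no test. The remaining receptor, S1pr5, was not on the list and is given beside the members for completeness.

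RNA was sequenced from the iridocorneal angle, the ring of drainage tissue between iris and cornea, of untreated male and female mice of 12 months. The authors state that remnants of iris and ciliary body stayed attached to the dissected ring. The DBA/2J strain carries a truncating Gpnmb allele together with the Tyrp1 b allele and develops pigmentary glaucoma. The control strain, DBA/2J-Gpnmb+/SjJ (Gpnmb+), has the functional Gpnmb allele on the same background and shares the Tyrp1 b allele. Of DBA/2J there were 3 pools and of Gpnmb+ 2, with 3 mice stated for each, although the library names of the Gpnmb+ pools list 2 animal numbers each. The p-values below therefore measure the spread between pools that already average several animals.

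Counts on genes summed to 43900661 to 45596089 in the DBA/2J pools and to 48283935 to 49837758 in the Gpnmb+ pools. Gpnmb itself had 1946 to 2234 counts in DBA/2J and 110568 to 129659 in Gpnmb+, as labelled. The pools also differed in sex-linked RNA. Xist, expressed from the inactive X chromosome, had 0 to 2417 counts in DBA/2J and 7843 to 9152 in Gpnmb+. The Y-linked gene Ddx3y had 1567 to 4168 counts across DBA/2J, against 0 and 4 for Gpnmb+, although males are stated for both genotypes. Neither Gpnmb+ library therefore showed the male RNA that the stated animals would give, and sex and genotype cannot be told apart in any comparison below. DBA/2J pool 1 stood apart in early response RNA, with 7611 counts of Fos against 689 to 1384 in the other 4 pools. Trabecular meshwork markers were all detected, and 6 of 6 passed the count filter.

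S1pr3 encodes an S1P receptor that couples to several G protein classes. It had 2326, 2321 and 2097 counts in pools 1 to 3 of DBA/2J, against 828 and 628 in pools 1 and 2 of Gpnmb+. These were 52.3, 54.1 and 47.0 CPM (counts scaled to library size) against 16.3 and 12.8 CPM. Every DBA/2J pool was above both Gpnmb+ pools, and the lowest DBA/2J pool lay well above the highest Gpnmb+ pool. The mean was 51.1 ± 3.68 CPM (SD, n = 3) in DBA/2J and 14.6 ± 2.46 CPM (SD, n = 2) in Gpnmb+. S1pr3 was thus 3.51-fold higher in DBA/2J, or 1.81 on the log2 scale with a standard error of 0.14. With a single pool left out it stayed between 1.65, without Gpnmb+ pool 2, and 2.00, without Gpnmb+ pool 1.

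S1pr3 lies on the plus strand of chromosome 13 of GRCm39, from 51561702 to 51576833. GENCODE gives it 5 transcripts of 2 exons each, which begin at 3 different first exons and share one coding stretch of 1134 bases, chr13:51572821-51573954, inside the second exon. The transcripts differ in their untranslated regions before and after the coding stretch and not in the encoded receptor, and gene-level counts do not separate them. An antisense long noncoding gene, Gm32834, shares 134 bases (2.74%) of its exons and had 3 to 9 counts in any pool. S1pr1, the receptor closest to S1pr3 in mean level over the 5 pools, lies on the minus strand of chromosome 3 from 115504071 to 115508721. It likewise has a single coding stretch, of 1146 bases.

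The 250 bases upstream of the canonical start of each of these receptors are shown because S1pr3 and S1pr1 had similar levels in DBA/2J and different ones in Gpnmb+. They were read from GRCm39 on the strand of the gene, 5′ to 3′, with matches to the searched motifs in capitals. Each stretch is a single reference sequence that stands for both genotypes, so it describes the gene and not a difference between the genotypes. The S1pr3 window is chr13:51562425-51562674 (plus strand) and the S1pr1 window is chr3:115508722-115508971 (minus strand).
S1pr3: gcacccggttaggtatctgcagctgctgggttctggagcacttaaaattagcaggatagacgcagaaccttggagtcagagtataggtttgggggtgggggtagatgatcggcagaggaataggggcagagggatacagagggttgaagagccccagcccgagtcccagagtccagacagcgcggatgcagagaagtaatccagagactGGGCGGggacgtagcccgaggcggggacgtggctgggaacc
S1pr1: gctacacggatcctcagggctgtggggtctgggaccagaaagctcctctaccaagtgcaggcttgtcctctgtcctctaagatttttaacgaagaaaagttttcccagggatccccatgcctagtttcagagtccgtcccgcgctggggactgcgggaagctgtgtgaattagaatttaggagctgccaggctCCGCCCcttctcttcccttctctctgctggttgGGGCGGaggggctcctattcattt
Both strands were searched for 5 motifs, in the window of the canonical start alone. Each receptor also has annotated transcripts that begin at other first exons, and those starts were not searched. The S1pr3 window held 1 GC box (GGGCGG), which begins 41 bases before the start. The S1pr1 window held 2, at 57 and 24 bases before the start, the first of them on the other strand. Among 21770 windows of this length upstream of protein-coding genes, 36.3% held a GC box. Neither receptor window held the TATA box letters TATAAA, present in 11.9% of all windows. The AP-1 letters TGANTCA, present in 6.17%, had no match in either. Nor did the TEAD letters GGAATG, which 12.1% of windows held, or the E-box CACGTG, which 6.26% held. The S1pr1 window also overlaps 1 annotated exon, whereas the S1pr3 window overlaps no annotated exon. An antisense noncoding gene, Gm9889, shares 50 bases (1.21%) of the S1pr1 exons. The S1pr3 window was 58.8% G and C with 11 CG dinucleotides, the S1pr1 window 55.2% with 8, against medians of 53.2% and 8 over all windows.

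The other receptors on the list did not pass the test between genotypes. S1pr1, the receptor of vascular and lymphatic endothelium and of circulating lymphocytes, had 2256, 1182 and 1541 counts across DBA/2J, against 1613 and 1639 for Gpnmb+. The Gpnmb+ pools sat inside the DBA/2J range, whose highest value was DBA/2J pool 1 at 50.7 CPM against 27.5 and 34.5 CPM in pools 2 and 3. The log2 fold change was 0.20 (95% interval -0.40 to 0.81), and the adjusted p by the quasi-likelihood test of edgeR was 0.742. Without DBA/2J pool 1 it was -0.07. Beside S1pr1, 8 endothelial markers summed to 655, 514 and 637 CPM in DBA/2J and 593 and 580 CPM in Gpnmb+, and their part in the spread of S1pr1 was not tested.

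S1pr2, a receptor known to oppose cell migration, had 856, 810 and 938 counts across DBA/2J, against 1163 and 1018 for Gpnmb+. After scaling, these were 19.3, 18.9 and 21.0 CPM against 22.9 and 20.8 CPM, and the lower Gpnmb+ pool sat just under the highest DBA/2J pool. The log2 fold change was -0.15 (95% interval -0.41 to 0.11, adjusted p = 0.554, edgeR). The interval leaves room for a level up to 1.08-fold higher or 0.752 times as high in DBA/2J, smaller in either direction than the 1.5-fold used for calls.

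S1pr4, a receptor of lymphocytes and other blood cells, was sparse, with 51, 51 and 48 counts across DBA/2J, against 67 and 49 for Gpnmb+. On the log2 scale it differed by -0.03 (95% interval -0.66 to 0.60, adjusted p = 0.966, edgeR), and a 1.5-fold difference was not excluded at this depth. T cell markers, 6 genes, summed to 20.4 to 41.9 CPM over the pools, and 5 B and plasma cell markers to 6.08 to 15.5 CPM. Macrophage markers, 7 genes, summed to 726 to 1060 CPM. S1pr5, a receptor known from oligodendrocytes and natural killer cells, had 374, 379 and 289 counts across DBA/2J, against 498 and 439 for Gpnmb+. Its DBA/2J pools were all below both Gpnmb+ pools in CPM, but the difference was small, with a log2 fold change of -0.25 (95% interval -0.67 to 0.18, adjusted p = 0.544, edgeR).

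The make-up of the receptor RNA differed between the pools of the genotypes. Counts were divided by exon length to compare genes, giving CPM per kilobase of exon. On this scale S1pr3 was 38.5%, 48.8% and 42.9% of the summed RNA of the 5 receptors in pools 1 to 3 of DBA/2J, against 20.0% and 16.6% in the pair of Gpnmb+. S1pr1 was 44.1%, 29.3% and 37.3% of the sum in DBA/2J and 45.9% and 51.1% in Gpnmb+. S1pr1 was thus the largest share in both Gpnmb+ pools and in DBA/2J pool 1, and S1pr3 in DBA/2J pools 2 and 3. S1pr5 made up 8.55% to 11.5% in DBA/2J and 16.7% to 17.3% in Gpnmb+, and S1pr4 at most 3.31% in any pool.

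The summed level of the 5 receptors was 27.9, 22.7 and 22.4 CPM per kilobase in DBA/2J and 16.7 and 15.9 in Gpnmb+. Without S1pr3 it was 17.1, 11.6 and 12.8 in DBA/2J and 13.4 and 13.2 in Gpnmb+, so the groups overlapped once S1pr3 was left out. S1pr3 stood to S1pr1 as 0.873, 1.66 and 1.15 to 1 in DBA/2J, against 0.435 and 0.324 to 1 in Gpnmb+. Since these shares contain S1pr3, they describe the difference that chose the list and add no test of it. Dividing by the longest transcript in place of all exons gave S1pr3 a share of 37.4% to 47.8% in DBA/2J and 16.0% to 19.3% in Gpnmb+.

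**Figure D1:**
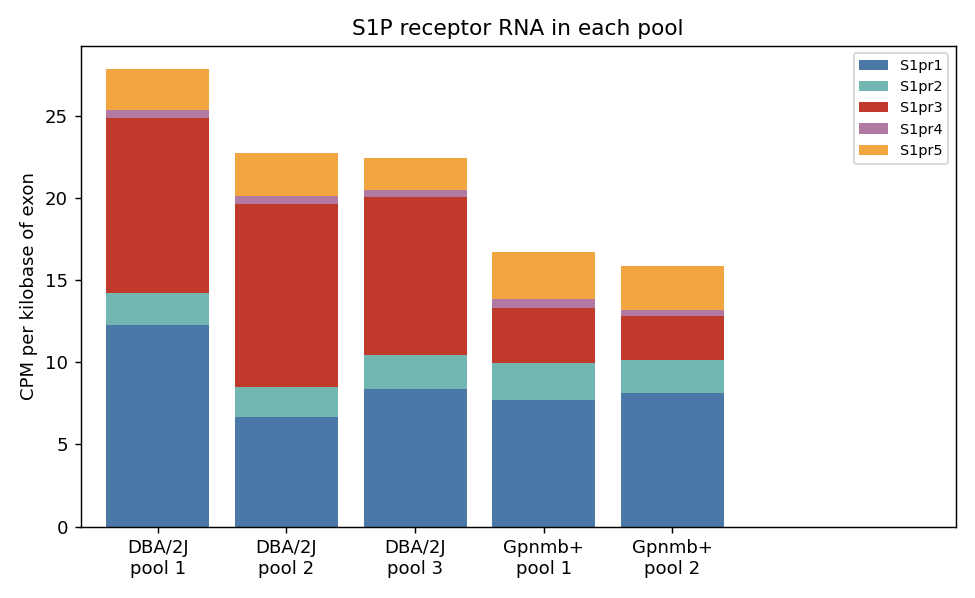
Stacked bars of S1P receptor RNA in the 5 pools, in CPM per kilobase of exon, one color per receptor. The S1pr3 segment is 9.63 to 11.1 high in the DBA/2J pools and 2.63 to 3.34 in the Gpnmb+ pools, and S1pr1 is tallest in DBA/2J pool 1 at 12.3.

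The kinases make S1P. Sphk1, the inducible cytoplasmic kinase, was rare, with 211, 127 and 212 counts across DBA/2J, against 168 and 88 for Gpnmb+. Pools of one genotype differed up to 1.61-fold in DBA/2J and 1.84-fold in Gpnmb+ by CPM, and the groups overlapped. The log2 fold change of 0.70 was the largest among the members beside S1pr3, with a wide 95% interval from -0.16 to 1.56 (adjusted p = 0.396, edgeR). Leaving out Gpnmb+ pool 2 gave 0.33 and leaving out Gpnmb+ pool 1 gave 1.21, so the value rests on which Gpnmb+ pool is used.

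Sphk2, the kinase found mainly in the nucleus and at internal membranes, had 1825, 1996 and 1879 counts across DBA/2J, against 2079 and 2321 for Gpnmb+. Its difference on the log2 scale was -0.03 (95% interval -0.29 to 0.22, adjusted p = 0.912, edgeR). Per kilobase its level was 6.44 to 11.7 times that of Sphk1 in DBA/2J and 9.22 and 19.6 times in Gpnmb+. The Sphk2 level is less certain than the others, because 30.9% of its exon bases overlap exons of Rpl18, a ribosomal protein gene on the opposite strand with 9368 to 13648 counts, and 7.24% overlap Dbp. The strand setting of the counting is not given in the sources used here. The remaining members share at most 3.46% of their exon bases with another gene.

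Sgpl1, the lyase that cleaves S1P irreversibly, and Sgpp1, a phosphatase that returns it to sphingosine, were both among the 3 highest levels of the list. Sgpl1 had 8593, 7918 and 7118 counts across DBA/2J, against 8295 and 7313 for Gpnmb+, or 193, 184 and 160 CPM against 163 and 150 CPM. The lowest DBA/2J pool lay between the Gpnmb+ pools. On the log2 scale it differed by 0.19 (95% interval -0.07 to 0.47, adjusted p = 0.45, edgeR).

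Sgpp1 had 3973, 4076 and 4524 counts across DBA/2J, against 4223 and 4052 for Gpnmb+. Per kilobase these were 15.5, 16.5 and 17.6 CPM against 14.5 and 14.4 CPM, with every DBA/2J pool above both Gpnmb+ pools by a narrow margin. Its difference on the log2 scale was 0.20 (95% interval -0.01 to 0.41, adjusted p = 0.343, edgeR). Both intervals end below a 1.5-fold difference, so a change of that size in either degrading enzyme lies outside what these pools allow under this model. The ratio of Sgpl1 to the summed kinases was 3.74 to 4.63 per kilobase in DBA/2J and 3.41 and 4.09 in Gpnmb+.

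Spns2, which exports S1P from endothelial and other cells, varied widely between pools of one genotype. It had 2479, 4349 and 3364 counts across DBA/2J, against 3998 and 6903 for Gpnmb+. Within DBA/2J its CPM spanned 1.82-fold and within Gpnmb+ 1.79-fold, and the groups overlapped. On the log2 scale it differed by -0.50 (95% interval -1.28 to 0.27, adjusted p = 0.496, edgeR). With Gpnmb+ pool 2 left out it was -0.02, and with pool 1 left out -0.86. Lymphatic and Schlemm's canal endothelial markers, 4 genes, summed to 86.6, 114 and 119 CPM in DBA/2J and 116 and 133 CPM in Gpnmb+. DBA/2J pool 1 was the lowest pool and Gpnmb+ pool 2 the highest in both Spns2 and this sum. The pools between them were ordered differently, DBA/2J pool 2 being above DBA/2J pool 3 in Spns2 (101 against 75.4 CPM) and below it in this sum. The part of these cells in the Spns2 values was not tested. In bulk tissue, fewer cells of a type and less RNA per cell cannot be told apart.

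**Figure D2:**
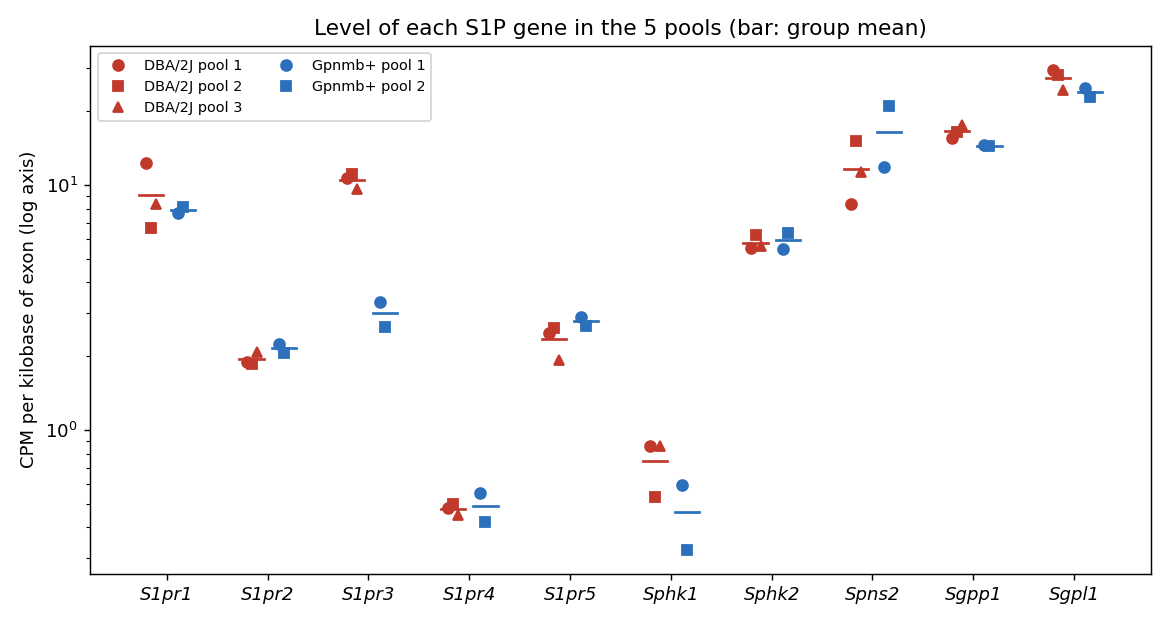
Level of the 9 members and S1pr5 in each pool, in CPM per kilobase of exon on a log axis, with DBA/2J pools in red, Gpnmb+ pools in blue and a bar at each group mean. S1pr3 shows the widest gap between the groups, and Spns2, Sphk1 and, in DBA/2J, S1pr1 scatter most within a group.

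Ordered by mean level over the 5 pools, the genes ran from Sgpl1 at 26.0 CPM per kilobase through Sgpp1 (15.7), Spns2 (13.5), S1pr1 (8.62), S1pr3 (7.48), Sphk2 (5.86), S1pr5 (2.52), S1pr2 (2.02) and Sphk1 (0.633) to S1pr4 (0.481). Sgpl1 was above every other gene of the list in every pool. Sgpp1 and Spns2, Spns2 and S1pr1, S1pr1 and S1pr3, Spns2 and S1pr3, S1pr3 and Sphk2, S1pr3 and S1pr5, S1pr5 and S1pr2, and Sphk1 and S1pr4 had overlapping pool values and are not ordered beyond their spread. Among all tested genes Sgpl1 stood at percentile 93.5 of level per length, S1pr3 at 76.2 and S1pr4 at 26.0. The position of S1pr3 depended on genotype, with a mean of 10.5 CPM per kilobase in DBA/2J, above S1pr1 at 9.10, and 2.99 in Gpnmb+, below Sphk2 at 5.94. With the longest transcript as the length, the order stayed the same except that S1pr2 (2.74) passed S1pr5 (2.52).

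Genes were called where the adjusted p did not exceed 0.05 and the levels differed 1.5-fold or more. On that rule 1 of the 9 members was called, S1pr3, and this count follows from how the list was chosen. The same rule called 157 of 19713 tested genes (0.796%), with 0.502% of the tested genes higher and 0.294% lower in DBA/2J. The other 8 members gave 0 calls with edgeR, 0 at an unadjusted p of at most 0.05 and 0 with DESeq2. Their log2 fold changes ran from -0.50 to 0.70 with 4 above and 4 below zero and a median of 0.08, against -0.02 over all tested genes. Groups did not overlap for 2 of the 9 members, S1pr3 and Sgpp1, where 34.5% of all tested genes showed such a separation, 17.3% with DBA/2J above and 17.2% with DBA/2J below. At least 1.5-fold higher in DBA/2J, test aside, were 2 members (S1pr3 and Sphk1) and 8.39% of all tested genes.

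Without any 1 of the 3 DBA/2J pools, S1pr3 was not among the called genes, and those fits called between 1 and 17 genes over the whole table. Fits without a Gpnmb+ pool keep only 1 pool of that genotype, so no calls are read from them. Because S1pr3 chose the list, whether it is called in a given fit is a description and no test of it.

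**Figure D3:**
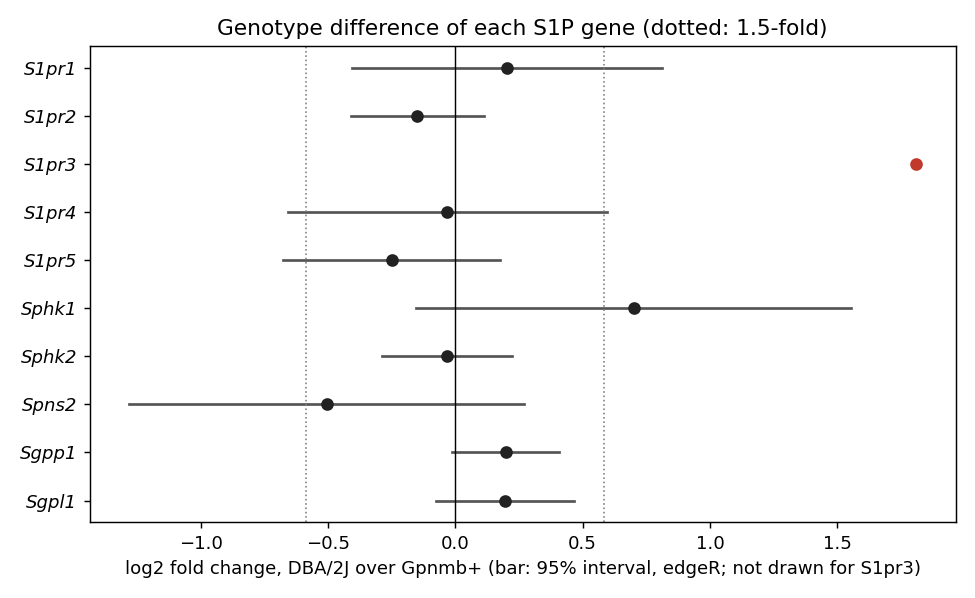
Log2 fold change of DBA/2J over Gpnmb+ for the 9 members and S1pr5, with 95% intervals from edgeR and dotted lines at 1.5-fold. S1pr3 is drawn as a point without an interval at 1.81, and the intervals of all 9 other genes include zero.

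Nonpigmented ciliary epithelium, the layer of the ciliary body that faces the aqueous humor, had higher marker RNA in DBA/2J, as S1pr3 did. Its 6 markers summed to 865, 982 and 1110 CPM in pools 1 to 3 of DBA/2J and to 341 and 187 CPM in pools 1 and 2 of Gpnmb+, a 3.74-fold ratio of group means. All 6 had higher means in DBA/2J, their median log2 fold change being 1.70, and edgeR called 2. This list, like the others, was chosen with earlier results of these data known, so these counts are a description. Optc, which encodes opticin, a vitreous protein made by this epithelium, had 524, 602 and 684 CPM against 172 and 78.2 CPM. Gpnmb+ pool 2 was the lower of its pair for both S1pr3 and the marker sum. Among the DBA/2J pools the orders differed, since pool 3 had the highest marker sum and the lowest S1pr3. The part of ciliary epithelium in the S1pr3 difference was not tested.

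Other cell types moved less or the other way. Fibroblast markers, 5 genes, summed to 5860 to 6360 CPM in DBA/2J and 5270 to 5920 CPM in Gpnmb+, and their median difference was 0.01 on the log2 scale. Smooth muscle markers, a cell type known for S1pr3 in vessel walls, summed to 723 to 857 CPM in DBA/2J and 785 to 1000 CPM in Gpnmb+, 1 of 6 being higher. Trabecular meshwork markers had 1 of 6 higher, 1 called lower and a median log2 difference of -0.84, while their sum was 4060 to 5010 CPM in DBA/2J and 2630 to 3310 CPM in Gpnmb+. Schwann cell markers were 0 of 6 higher and 2 were called lower. Skeletal muscle markers were 8 of 8 higher with 0 called, and summed to 201 to 467 CPM in DBA/2J and 124 to 192 CPM in Gpnmb+.

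The genes whose pattern over the 5 pools was most like that of S1pr3 were found by the root mean square difference of log2 CPM after centering each gene on its own mean. The nearest was Cdh4, which encodes R-cadherin, at a difference of 0.0337, with 1154, 1214 and 1092 counts across DBA/2J, against 430 and 312 for Gpnmb+. It was followed by Dlgap2, a postsynaptic scaffold gene, at 0.0699, the noncoding gene Gm26709 at 0.0767, Serpina3g, a serine protease inhibitor of immune cells, at 0.119 and Ptchd4 at 0.120. The median over all tested genes was 0.93. The 5 were picked as the smallest distances from S1pr3, whose difference chose the list, so these values are a description and no test. Gm26709 and Serpina3g were sparse, with 14 to 60 counts in any pool.

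The wider pathway was read from lists of 74 genes, of which 72 were tested. In all, 40 were higher and 32 lower in DBA/2J, where 47.4% of all tested genes were higher, and edgeR called 0 of the 72. Both an unadjusted p of at most 0.05 and a 1.5-fold difference were met by 4 genes, and by 8.67% of all tested genes. DESeq2 called 3 of the 72 (Acer2, Cers4 and Vcl). Over all genes to which it gave an adjusted p, DESeq2 called 5.21%. The median log2 fold change of the 72 was 0.01.

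Among other genes of S1P handling, 8 of 9 were tested (Apom had too few counts), 2 higher and 6 lower, the median log2 difference being -0.22. The values farthest from zero were those of sparse genes, the phosphatase Sgpp2 at -0.69 (adjusted p = 0.547, edgeR) and Mfsd2b, the S1P exporter of red cells and platelets, at -0.66 (adjusted p = 0.539, edgeR). Plpp3, a surface phosphatase that removes extracellular S1P and lysophosphatidic acid, is named after its values were seen. It had 10981, 9963 and 10970 counts across DBA/2J, against 16737 and 16999 for Gpnmb+, with all DBA/2J pools below both Gpnmb+ pools. Its difference on the log2 scale was -0.49 (95% interval -0.69 to -0.28, adjusted p = 0.0704, edgeR), short of both thresholds.

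Ceramide synthesis supplies the sphingosine backbone, and all 17 genes of that list were tested. There were 13 higher and 4 lower, the median log2 difference being 0.03. Sptlc3, a subunit of serine palmitoyltransferase, had a log2 difference of 1.06 (adjusted p = 0.459, edgeR) and was highest in DBA/2J pool 3, with 251 counts against 60 to 89 in the other pools. Cers4, a ceramide synthase, had 3270, 3550 and 4257 counts across DBA/2J, against 2919 and 2553 for Gpnmb+, which is 0.61 on the log2 scale (adjusted p = 0.104, edgeR).

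Of the ceramide turnover genes 15 of 16 were tested (Acer1 had too few counts), 8 higher and 7 lower. The alkaline ceramidase Acer2, which releases sphingosine in the Golgi, had 558, 518 and 613 counts across DBA/2J, against 942 and 1023 for Gpnmb+, with no overlap. On the log2 scale it differed by -0.63 (95% interval -0.92 to -0.34, adjusted p = 0.0858, edgeR). Ugcg, which makes glucosylceramide, had a log2 difference of 0.59 (adjusted p = 0.295, edgeR), and its pools overlapped.

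Some, not all, of the receptors for lysophosphatidic acid are the nearest relatives of the S1P receptors. Their list also holds the lysophosphatidic acid producing enzyme autotaxin (Enpp2), and none of its 7 genes reached 1.5-fold. Lpar1 had a log2 difference of -0.33 (adjusted p = 0.18, edgeR) and Lpar5 of -0.25 (adjusted p = 0.494, edgeR). The other members ran from -0.12 to 0.21.

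Downstream of the receptors, 17 genes of receptor signaling, among them G protein subunits and arrestins, were tested, with 8 higher and 9 lower, a median of 0.00 and 0 past 1.5-fold. Arrb1, which encodes a beta-arrestin that takes activated receptors out of signaling, had the value farthest from zero, 0.47 (adjusted p = 0.0867, edgeR), and Rock1, which encodes a kinase that promotes contraction of the cytoskeleton, had -0.20 (adjusted p = 0.383, edgeR). The G protein subunit genes Gna12 and Gna13 had log2 fold changes of 0.15 and 0.13, and are named after their values were seen.

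**Figure D4:**
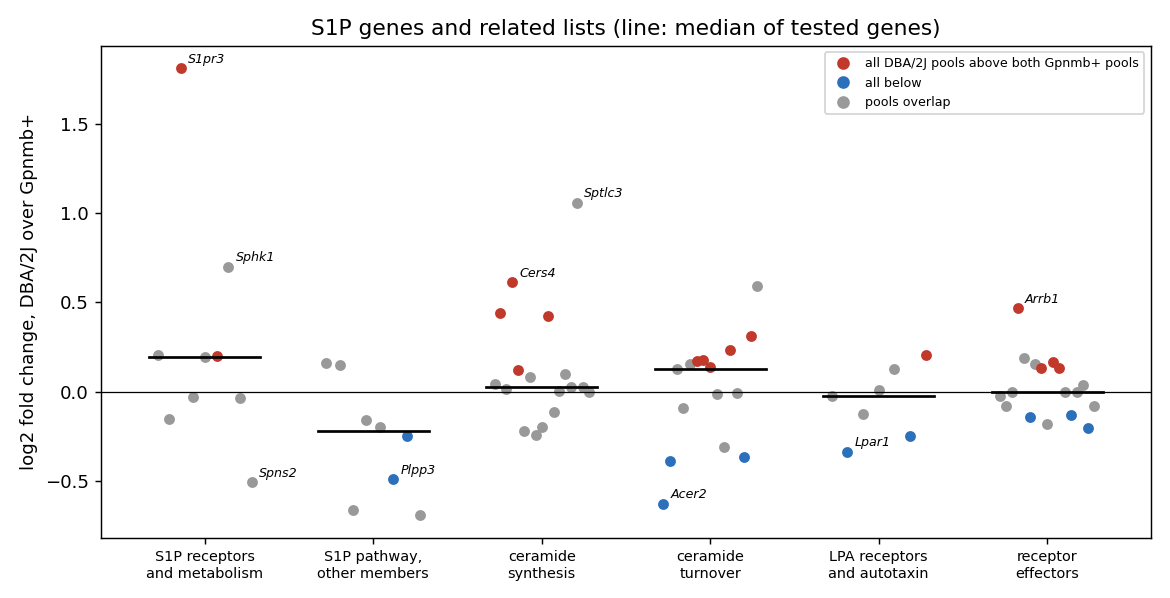
Log2 fold change of DBA/2J over Gpnmb+ for every tested gene of the S1P list and of 5 related lists, colored by whether the pools of the genotypes overlap, with a line at each list's median. S1pr3 at 1.81 is the highest point, followed by Sptlc3 at 1.06, and the medians lie between -0.22 and 0.20.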

How the data were processed

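After trimming (fastp) and alignment to GRCm39, Ensembl 110 (STAR), the authors deposited raw counts of reads with a single genomic location, summed per gene and not normalized. Library preparation enriched mRNA. The strand setting of the counting is not given in the sources used here.

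Names, positions and exon lengths came from GENCODE mouse release M39 (GRCm39), which held 56323 of the 56941 identifiers. The fit took the 19713 genes that reached 10 counts in 1 pool or more. TMM set the effective library sizes, and edgeR 4.0.16 in R 4.3.3 compared the genotypes by its quasi-likelihood test with no covariate. P-values were adjusted over all tested genes by Benjamini-Hochberg. Genes were called at an adjusted p not above 0.05 and a difference of 1.5-fold or more. Standard errors were the log2 fold change over the square root of F, and 95% intervals used the total degrees of freedom of that test. Log2 CPM had a prior count of 2. DESeq2 1.42.0 was an alternative. The fits were also tested on simulated data with a smaller spread than the one fitted here, so that check does not cover the spread of these pools. For 1 gene, the smallest two-sided p that an exact rank-sum test of 3 and 2 pools allows is 0.2. Totals of 43900661 to 49837758 counts per pool set the precision, and intervals do not cover variation between mice within a pool.

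The members and gene lists were chosen with earlier results of these data known. Named genes were the members, S1pr5, every called gene of a pathway list or otherwise its 2 largest absolute log2 fold changes, and the 5 genes most like S1pr3. Corneal epithelium markers and the genes most like S1pr1, Spns2 and Sphk1 were added after values were seen. The older symbol Chil1 was matched through RefSeq synonyms. Alternatives were edgeR on DESeq2 size factors, the DESeq2 Wald test, filterByExpr, no count minimum, no fold change minimum, unadjusted p, the replicate number as a block, each pool left out, and the longest transcript as gene length. Where 1 Gpnmb+ pool remained it was assumed to vary like the DBA/2J pools. Red cell, platelet and pigment cell markers summed to 64.2 to 169 CPM and 3380 to 4460 CPM. Protein data were not analysed here. A further list of target genes enters the totals over pathway genes and is not reported here.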

Additional observations from a re-analysis of the deposited data

How the results depend on the processing

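Leaving out each pool in turn, the number of members called ran from 0 to 1 and the number of all genes called from 1 to 217, where 157 were called with all pools. DESeq2's Wald test called 927 genes, edgeR without a count minimum 360 and edgeR with unadjusted p-values 1710. Of the pathway lists, with 0 called in edgeR, DESeq2 called 3 genes and unadjusted p-values gave 4. DESeq2's size factors, filterByExpr and no fold change minimum left the counts of members, pathway genes and all genes within 1.5 times. With the replicate block, edgeR called 1 member (S1pr3, log2 fold change 1.88), 0 pathway genes and 220 genes in all. Deviations from the group mean correlated at 0.279 between the pools numbered 1 and 0.254 between those numbered 2, over 19713 genes. With 2 such pairs and no label that ties them, the numbers are not taken as a pairing.

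Small differences changed sign. The log2 fold change of S1pr1 ran from -0.07 to 0.39 with a pool left out, that of S1pr4 from -0.21 to 0.18 (0.02 with the replicate block) and that of Sphk2 from -0.13 to 0.08. The cause was not tested. Depth limits S1pr4 and Sphk1, which had at most 67 and 212 counts in a pool.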

Other observations

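Levels of S1pr1, Spns2 and Sphk1 differed between pools of one genotype, and the genes nearest to each in pattern were looked up after their values were seen, by the root mean square difference of centered log2 CPM over the 5 pools. For Spns2 they were Paqr8 (0.0413), Gm31105 (0.0603), Mab21l4 (0.0624), Prss8 (0.0682) and Catsperz (0.0699). Prss8 encodes prostasin, a membrane protease of epithelia, and had 868, 1480 and 1219 counts across DBA/2J, against 1482 and 2238 for Gpnmb+. Corneal epithelium markers, 7 genes, did not follow the same order, with 10900, 11900 and 7380 CPM in DBA/2J and 13000 and 11600 CPM in Gpnmb+.

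For S1pr1 the nearest genes were Taf4b (0.033), Gm5459 (0.0424), Acat3 (0.0473), Nes (0.0502) and Polr1e (0.0536). Nes encodes nestin, an intermediate filament protein, and had 1940, 969 and 1306 counts across DBA/2J, against 1260 and 1393 for Gpnmb+. DBA/2J pool 1 was the highest pool for S1pr1 and for Nes, and also for Fos, at 171 CPM against 13.6 to 31.0 CPM elsewhere.

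For Sphk1 the nearest were Slc25a31 (0.0973), Gm11517 (0.0973), Gm48823 (0.1), Tbx5 (0.118) and 9330160F10Rik (0.118). Tbx5, a transcription factor of dorsal eye and limb patterning, had 385, 269 and 393 counts across DBA/2J, against 341 and 202 for Gpnmb+.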
